A study of Homo sapiens with 6 samples.

Results

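Messenger RNAs of the YAP/TEAD pathway were followed in 6 libraries from SK-Hep1 cells, an established human liver cancer line. The 8 genes were taken by symbol from the list of measured transcripts: the coactivators YAP1 and WWTR1, the DNA-binding partner TEAD1, the targets CYR61, CTGF and AMOTL2, the kinase LATS2 and the scaffold AJUBA. All 8 were listed, among 11593 gene symbols in all. They accounted for 36 of the 28768 transcripts, and their values were summed per gene.

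The study's question was which messenger RNAs are bound by SNHG10, a long noncoding RNA that hosts a small Cajal body RNA. ChIRP addresses it by capturing an RNA and its partners on antisense oligonucleotides that carry biotin. In 3 libraries the cells were probed with the complete SNHG10 probe set from RiboBio. In 3 control libraries the probe set was directed at LacZ, a bacterial gene absent from human cells, and came from Millipore. No treatment or genotype was labelled for any of the 6 libraries. The labels describe the library input as total RNA while the series design describes retrieved RNA, so which fraction was sequenced was not settled here. Separate cultures are not named for the replicates. The p-values therefore cover library-to-library spread alone, and that spread may be technical.

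YAP1 and its paralog WWTR1, also called TAZ, are transcriptional coactivators without a DNA-binding domain. They enter the nucleus and bind TEAD factors, which recognise the DNA core GGAATG. The Hippo kinases LATS1 and LATS2 phosphorylate them and keep them in the cytoplasm. Several direct targets feed back on the pathway: LATS2 is both kinase and target, and AMOTL2 retains YAP1 at junctions. CYR61 and CTGF encode secreted matricellular proteins of the CCN family and are the usual readouts of YAP activity, which is often raised in liver cancer.

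Promoter sequences show where the TEAD core lies at CTGF, AMOTL2 and AJUBA. RefSeq promoter windows of 300 bases (250 before the gene start and 50 after) on GRCh38.p14 were found for 6 of the 8 genes, in 9 windows. CYR61 and TEAD1 had no entry. The letters GGAATG, or CATTCC on the other strand, were searched, and 14.03% of the 35116 windows of all genes held at least 1 match. Of the 9 windows, 5 held a match. The CTGF window, listed under the newer symbol CCN2, held 3 matches, beginning 169, 104 and 95 bases before the start. At least 3 matches were found in 0.128% of all windows. The second AMOTL2 window held 1 match (69 bases before the start) and the second AJUBA window held 1 (59 bases before), while the first window of each held none. YAP1 held 1 match 162 bases before its start, and LATS2 held 1 beginning 9 bases after it. A match is a stretch of letters and was not tested as a binding site. The 250 bases before the start are shown for CTGF, a standard YAP target, and for both AMOTL2 and both AJUBA starts, because transcripts of these genes begin at different places. Capitals mark the matches, and all lie on the minus strand of GRCh38.p14, written 5′ to 3′.
CTGF, chr6:131951373-131951622: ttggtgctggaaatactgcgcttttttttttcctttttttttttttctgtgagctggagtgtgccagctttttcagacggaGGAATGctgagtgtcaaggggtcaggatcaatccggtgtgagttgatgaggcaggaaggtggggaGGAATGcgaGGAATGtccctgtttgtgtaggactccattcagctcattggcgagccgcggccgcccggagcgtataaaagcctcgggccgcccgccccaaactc
AMOTL2, first start, chr3:134375418-134375667: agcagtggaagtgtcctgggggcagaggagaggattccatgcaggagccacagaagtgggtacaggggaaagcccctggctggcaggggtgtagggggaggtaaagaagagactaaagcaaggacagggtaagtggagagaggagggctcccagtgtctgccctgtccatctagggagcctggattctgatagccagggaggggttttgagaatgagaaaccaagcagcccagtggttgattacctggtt
AMOTL2, second start, chr3:134374448-134374697: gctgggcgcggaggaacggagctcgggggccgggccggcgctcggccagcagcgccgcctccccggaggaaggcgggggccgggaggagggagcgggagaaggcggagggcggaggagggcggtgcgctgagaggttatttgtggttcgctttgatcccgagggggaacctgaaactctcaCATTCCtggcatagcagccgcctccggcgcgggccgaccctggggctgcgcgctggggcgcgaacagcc
AJUBA, first start, chr14:22982552-22982801: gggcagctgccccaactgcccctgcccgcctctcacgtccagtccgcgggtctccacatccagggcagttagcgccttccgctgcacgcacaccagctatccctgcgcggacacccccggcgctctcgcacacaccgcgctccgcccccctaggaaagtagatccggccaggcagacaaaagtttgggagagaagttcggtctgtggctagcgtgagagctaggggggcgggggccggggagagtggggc
AJUBA, second start, chr14:22976843-22977092: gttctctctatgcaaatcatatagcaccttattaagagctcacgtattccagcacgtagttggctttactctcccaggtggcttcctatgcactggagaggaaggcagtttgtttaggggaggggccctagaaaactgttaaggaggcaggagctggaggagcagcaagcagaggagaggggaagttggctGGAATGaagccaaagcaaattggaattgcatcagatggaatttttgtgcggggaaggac

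Values are in FPKM, fragments scaled to transcript length and library size, which corrects for length and so allows levels of different genes to be set side by side. Over all listed transcripts the SNHG10 libraries summed to between 268794 and 272909 FPKM, and the LacZ libraries to between 271354 and 277118 FPKM. The read depth is unknown, so counting error could not be computed. Pairs of libraries correlated across genes at a Pearson r of 0.887 to 0.897, a description over genes that are not independent replicates. Of 10 hepatocyte markers, 2 were listed (SERPINA1 and CPS1), with a summed level of 1.04 to 1.72 FPKM with SNHG10 probes and 1.25 to 2.12 FPKM with LacZ probes. The defining hepatocyte markers ALB, AFP, APOA1 and HNF4A were not among the listed genes, so these markers did not show a hepatocyte identity. Why a gene was not listed is not known. Of 6 epithelial markers, 4 keratins were listed, and summed to 1840 to 2080 FPKM with SNHG10 probes and 2030 to 2130 FPKM with LacZ probes. Of 8 endothelial markers, ENG, ROBO4 and EGFL7 were listed, summing to 42.4 to 51.2 FPKM with SNHG10 probes and 46.4 to 61.8 FPKM with LacZ probes. Of the 15 markers listed in all 5 lists, 3 did not overlap between probe sets, where 11.4% of all genes tested did not, and these 3 were lower with SNHG10 probes: EGFL7 at 7.45 to 8.30 FPKM against 14.03 to 25.98 FPKM with LacZ probes, KRT8 at 465.5 to 549.0 FPKM against 588.7 to 633.1 FPKM with LacZ probes, and CPS1 at 0.505 to 0.796 FPKM against 0.883 to 1.53 FPKM with LacZ probes. These 3 markers were picked after their values were seen, and the other listed markers of their lists overlapped. With SNHG10 and LacZ probes, means were 35.9 and 35.0 FPKM for ENG, 1.66 and 1.28 for ROBO4, and 0.723 and 0.414 for SERPINA1. Keratin means were 1014 and 1031 FPKM for KRT18, 411.5 and 414.9 for KRT19, and 17.85 and 19.77 for KRT7. The part of EGFL7, KRT8 and CPS1 in the results on the pathway was not tested. CPS1 and SERPINA1 did not reach 1 FPKM in 3 libraries, so they are not among the genes tested that the 11.4% covers. Fibroblast markers (4 of 5 listed) summed to 36.8 to 55.8 FPKM with SNHG10 probes and 47.5 to 63.2 FPKM with LacZ probes, and leukocyte markers (2 of 5 listed) to 36.8 to 56.1 FPKM with SNHG10 probes and 43.1 to 56.5 FPKM with LacZ probes. PECAM1, CDH5, PTPRC, CD3E, and the epithelial markers EPCAM and CDH1, were not among the listed genes. All 6 libraries came from the SK-Hep1 line, so these sums are levels in its RNA and not shares of cell types. In bulk RNA, fewer expressing cells and less RNA per cell cannot be told apart.

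Messenger RNAs of the pathway were read from coactivator to target, and CYR61, which encodes a secreted target, stood far above the other members. As the sequenced fraction was not settled, these are levels in the libraries and may differ from levels in the cells. CYR61 lay at percentile 99.0 to 99.2 of all genes within a library, and the lowest member, WWTR1, at percentile 72.5 to 85.0. The order of mean levels was CYR61, AMOTL2, CTGF, AJUBA, TEAD1, YAP1, LATS2 and WWTR1. CYR61 was above AMOTL2 in 6 of 6 libraries, and their ranges did not overlap. AMOTL2 was above CTGF in 6 of 6 libraries, also without overlap. From CTGF downwards every pair of neighbours overlapped in range. CTGF exceeded AJUBA in 5 of 6 libraries, AJUBA exceeded TEAD1 in 5, TEAD1 exceeded YAP1 in 3, and YAP1 exceeded LATS2 and LATS2 exceeded WWTR1 in 5 each.

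**Figure D1:**
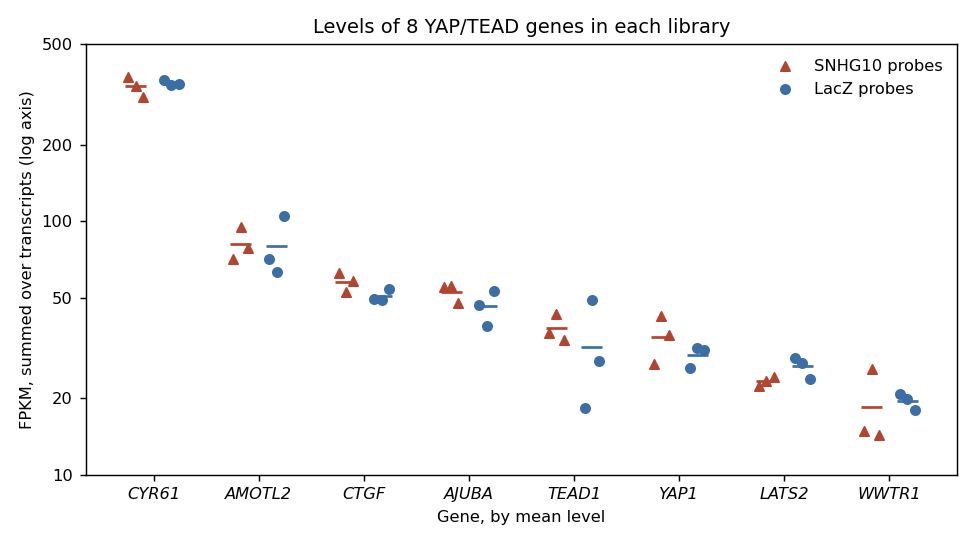
FPKM of each of the 8 genes (log axis) in the 3 SNHG10 libraries (triangles) and the 3 LacZ libraries (circles), with a bar at each mean. CYR61 sits between 308 and 372 FPKM in all 6 libraries, and the values of the probe sets overlap in every gene.

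No member passed the test between probe sets. Differences in log2(FPKM + 1) were fitted with limma over 10304 genes, and a Benjamini-Hochberg adjusted p under 0.05 was required. Of the 8 members, 0 were higher and 0 lower with SNHG10 probes, as were 0% of all genes tested, and the smallest adjusted p of a member was 0.928. At an unadjusted p under 0.05 the members also numbered 0, against 5.42% of all genes (558). The libraries of the probe sets overlapped in all 8 members, whereas they did not overlap in 11.4% of genes tested. The median log2 difference, SNHG10 minus LacZ probes, was 0.12 over the members and -0.05 over all genes tested. With median-ratio scaling the medians were 0.17 and -0.002. With 3 libraries a group, the exact permutation test cannot give a p below 0.1, and no member reached that value.

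The coactivators were read at moderate levels. YAP1 (chromosome 11, 101981192 to 102104154, plus strand, hg19) had 27.4, 42.3 and 35.6 FPKM with SNHG10 probes, against 26.3, 31.7 and 31.1 FPKM with LacZ probes. Its highest values were SNHG10 replicates 2 and 3, but SNHG10 replicate 1 lay among the LacZ libraries. The log2 difference was 0.22 ± 0.20 (SE), with a 95% interval of -0.25 to 0.69 (limma adjusted p = 0.928). It was 0.08 without SNHG10 replicate 2, 0.13 without LacZ replicate 1 and 0.38 without SNHG10 replicate 1. WWTR1 (chromosome 3, 149235022 to 149421060, minus strand) had 14.9, 26.1 and 14.3 FPKM with SNHG10 probes, against 20.9, 19.9 and 18.0 FPKM with LacZ probes. The SNHG10 libraries lay on either side of the LacZ libraries, with replicate 2 the highest of all 6 and replicates 1 and 3 the lowest. SNHG10 minus LacZ probes gave a log2 difference of -0.13 ± 0.26, with an interval of -0.74 to 0.47 (limma adjusted p = 0.959). With the highest transcript row, WWTR1-201, in place of the sum it was -0.61, and without SNHG10 replicate 2 it was -0.40. Within a library YAP1 stood above WWTR1 by 1.84, 1.62 and 2.49 times with SNHG10 probes and by 1.26, 1.59 and 1.72 times with LacZ probes, and these ratios overlapped (exact permutation p = 0.2).

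TEAD1 was the member with the widest spread. The gene (chromosome 11, 12696138 to 12966030, plus strand) encodes a DNA-binding TEAD factor. It had 36.3, 43.2 and 34.1 FPKM with SNHG10 probes, against 18.3, 48.9 and 28.1 FPKM with LacZ probes. The lowest and the highest of the 6 values were both LacZ libraries, replicates 1 and 2. The log2 difference was 0.35 ± 0.33, with an interval of -0.41 to 1.11 (limma adjusted p = 0.928). It was 0.02 without LacZ replicate 1 and 0.71 without LacZ replicate 2, the lowest and highest of the leave-one-out runs, and was not called in any.

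The secreted targets were the most evenly read. CYR61 (chromosome 1, 86046444 to 86049645, plus strand) had 372, 341 and 308 FPKM with SNHG10 probes, against 359, 345 and 348 FPKM with LacZ probes. The SNHG10 libraries spanned the whole range and enclosed the LacZ libraries. SNHG10 minus LacZ probes gave a log2 difference of -0.05 ± 0.10, with an interval of -0.27 to 0.18 (limma adjusted p = 0.961), and its sign turned with median-ratio scaling (0.01). CTGF (chromosome 6, 132269316 to 132272513, minus strand), whose promoter window shown above holds 3 matches to the TEAD core, had 62.3, 52.6 and 58.1 FPKM with SNHG10 probes, against 49.5, 49.1 and 54.0 FPKM with LacZ probes. All SNHG10 values but the lowest were above every LacZ value. The log2 difference was 0.18 ± 0.14, with an interval of -0.14 to 0.50 (limma adjusted p = 0.928, exact permutation p = 0.2). CYR61 exceeded CTGF within a library by 5.97, 6.47 and 5.30 times with SNHG10 probes and by 7.25, 7.03 and 6.44 times with LacZ probes. These ratios overlapped too, at SNHG10 replicate 2 and LacZ replicate 3 (exact permutation p = 0.2). Of the 28 ratios between pairs of members, which do not depend on how libraries are scaled, all overlapped between probe sets. Among ratios between any 2 of 9248 genes, 10.6% did not. The member ratios share genes and are not independent, so their count is a description.

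The pathway regulators AMOTL2, LATS2 and AJUBA also overlapped between probe sets. AMOTL2, an angiomotin family protein (chromosome 3, 134074716 to 134093760, minus strand), had 71.1, 94.6 and 78.1 FPKM with SNHG10 probes, against 71.2, 63.0 and 104.6 FPKM with LacZ probes. Its highest and lowest values were LacZ libraries. SNHG10 minus LacZ probes gave a log2 difference of 0.05 ± 0.21, with an interval of -0.44 to 0.54 (limma adjusted p = 0.979). LATS2 (chromosome 13, 21547171 to 21635686, minus strand) had 22.5, 23.5 and 24.3 FPKM with SNHG10 probes, against 28.9, 27.7 and 23.8 FPKM with LacZ probes. LacZ replicate 3 fell inside the SNHG10 range and the other LacZ libraries lay above it. The log2 difference was -0.18 ± 0.17, with an interval of -0.58 to 0.21 (limma adjusted p = 0.928). AJUBA, a LIM-domain protein that binds LATS kinases and restrains them (chromosome 14, 23440383 to 23451851, minus strand), had 54.8, 55.8 and 47.7 FPKM with SNHG10 probes, against 46.6, 38.6 and 53.3 FPKM with LacZ probes. LacZ replicate 3 lay among the SNHG10 libraries. SNHG10 minus LacZ probes gave a log2 difference of 0.20 ± 0.17, with an interval of -0.19 to 0.59 (limma adjusted p = 0.928). It was 0.08 without LacZ replicate 2 and 0.31 without LacZ replicate 3.

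**Figure D2:**
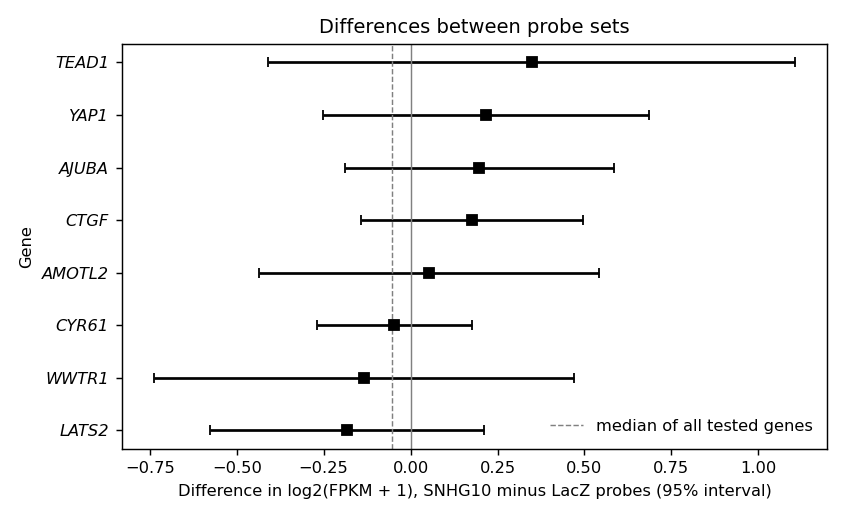
Difference in log2(FPKM + 1) between SNHG10 and LacZ probes for each gene, with its 95% interval from limma (n = 3 libraries each). All 8 intervals include 0, from the narrow one of CYR61 (-0.27 to 0.18) to the wide one of TEAD1 (-0.41 to 1.11).

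Replicates lay closest together in the members with 1 listed transcript, a description over 8 genes. CYR61, CTGF and LATS2 had 1 listed transcript each, and their SD within a probe set was 0.10, 0.10 and 0.11 on the log2(FPKM + 1) scale, at percentiles 2.67, 2.87 and 3.63 of all genes tested. The members with several listed transcripts had larger SDs: 0.18 for AJUBA, 0.24 for YAP1, 0.30 for AMOTL2, 0.33 for WWTR1 and 0.50 for TEAD1. The SD was also read over all genes tested with a mean of 20 to 100 FPKM. Its median was 0.208 for the 306 genes with 1 listed transcript and 0.265 for the 1616 genes with more. CYR61 (mean 345.5 FPKM) and WWTR1 (mean 19.03 FPKM) lie outside that band. The highest library exceeded the lowest by 1.21 times for CYR61, 1.27 times for CTGF and 1.29 times for LATS2, and by 2.66 times for TEAD1.

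**Figure D3:**
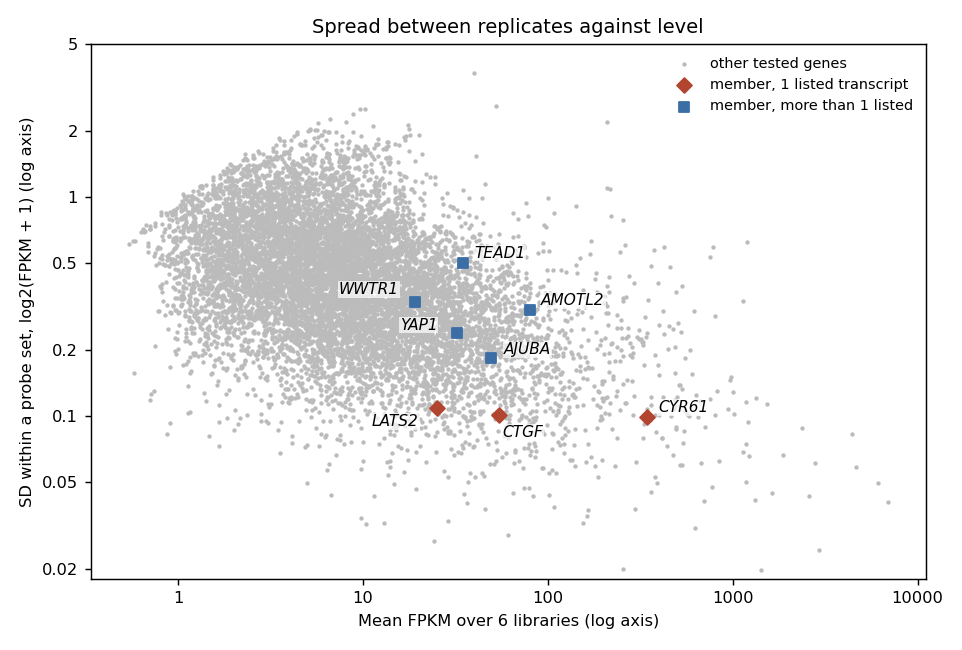
SD of log2(FPKM + 1) within a probe set (log axis) against mean FPKM over 6 libraries (log axis) for all genes tested (grey) and the 8 members. CYR61, CTGF and LATS2, with 1 listed transcript each (diamonds), lie between 0.10 and 0.11, below the members with several transcripts (squares), of which TEAD1 is highest at 0.50.

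Behind the sums, transcript values varied more than gene sums. Of the 36 listed transcripts, 27 had at least 1 FPKM in at least 3 libraries and were tested among 16618 rows. Of the 27, 0 were called, where 0.0903% of all rows (15) were called, 0.0481% higher and 0.0421% lower with SNHG10 probes. At an unadjusted p under 0.05 there was 1 member row, against 5.66% of all rows. The probe sets did not overlap in 2 of the 27, against 10.5% of all rows. As a share of the gene's sum, 3 of 24 rows of genes with more than 1 listed transcript did not overlap, against 9.33% of 12765 such rows. The transcripts described next were chosen after their values were seen.

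AJUBA had the clearest split between the values estimated for its listed transcripts. AJUBA-203 (chromosome 14, 23441024 to 23446432, hg19) had 16.7, 24.0 and 26.7 FPKM with SNHG10 probes, against 6.49, 10.7 and 11.2 FPKM with LacZ probes. All SNHG10 libraries lay above all LacZ libraries. Its log2 difference was 1.17 ± 0.31, unadjusted p = 0.00796, and it did not pass among all rows (limma adjusted p = 0.447, exact permutation p = 0.1, the smallest possible). The longer AJUBA-201, which spans chromosome 14, 23440383 to 23451851, leaned the other way with 25.3, 18.7 and 17.9 FPKM with SNHG10 probes, against 31.8, 24.8 and 35.7 FPKM with LacZ probes. SNHG10 replicate 1 overlapped LacZ replicate 2, and the log2 difference was -0.56 ± 0.23 (limma adjusted p = 0.890). On the minus strand, the listed start of AJUBA-203 lies 5419 bases downstream of that of AJUBA-201. The whole span of AJUBA-203, 5409 bases, lies within that of AJUBA-201. Reads that fit both cannot tell them apart, and how reads were assigned to them was not tested. The start sites of the printed RefSeq windows are on another build and were not matched to these transcripts. AJUBA-201 made up 46.2%, 33.6% and 37.5% of the AJUBA sum with SNHG10 probes, against 68.3%, 64.3% and 67.0% with LacZ probes. AJUBA-203 made up 30.5%, 43.1% and 56.0% with SNHG10 probes, against 13.9%, 27.8% and 21.1% with LacZ probes. Neither share overlapped between probe sets, while the AJUBA sum did. With 3 libraries a group, any row without overlap has an exact permutation p of 0.1. The shares were picked for not overlapping, so that p adds no support. Both shares are parts of the same sum, so they are not independent results.

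TEAD1 held 1 transcript without overlap in level, and WWTR1 held 1 without overlap in share. TEAD1-204 had 17.2, 15.8 and 13.9 FPKM with SNHG10 probes, against 1.48, 12.3 and 10.8 FPKM with LacZ probes, without overlap. LacZ replicate 1 was far below the others, and the row did not pass (log2 difference 1.18 ± 0.66, limma adjusted p = 0.951). In that library TEAD1-204 was 8.06% of the gene, against 25.2% and 38.5% in the other LacZ libraries, and the TEAD1 sum was the lowest of all 6. WWTR1-209 had 5.73, 5.51 and 2.09 FPKM with SNHG10 probes, against 1.29, 2.23 and 1.05 FPKM with LacZ probes. These values overlapped at SNHG10 replicate 3 and LacZ replicate 2 (limma adjusted p = 0.951). The share of WWTR1-209 in the WWTR1 sum was 38.3%, 21.2% and 14.6% with SNHG10 probes, against 6.15%, 11.2% and 5.85% with LacZ probes. That share did not overlap, which by itself fixes the exact permutation p at 0.1.

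YAP1 and AMOTL2, with 9 listed transcripts each, varied more by transcript than by sum. YAP1-201, YAP1-202, YAP1-209 and YAP1-210 share the same first and last base, and reads that fit more than 1 of them cannot tell them apart. YAP1-209 had 3.37, 0 and 11.1 FPKM with SNHG10 probes, against 0, 13.0 and 7.48 FPKM with LacZ probes. YAP1-208 had 2.25, 16.3 and 3.39 FPKM with SNHG10 probes, against 5.25, 6.77 and 2.89 FPKM with LacZ probes. The YAP1 sum varied by 1.61 times over the same libraries. AMOTL2-211 was listed at 0 in SNHG10 replicate 1 and LacZ replicate 2 and had 57.6 and 18.2 FPKM in the other SNHG10 libraries, against 16.7 and 15.0 FPKM in the other LacZ libraries. It made up 60.9% of the AMOTL2 sum in SNHG10 replicate 2. Of the 36 transcripts, 18 were above 0 in all 6 libraries. Whether a value of 0 is an absent transcript or a failed estimate is not known.

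**Figure D4:**
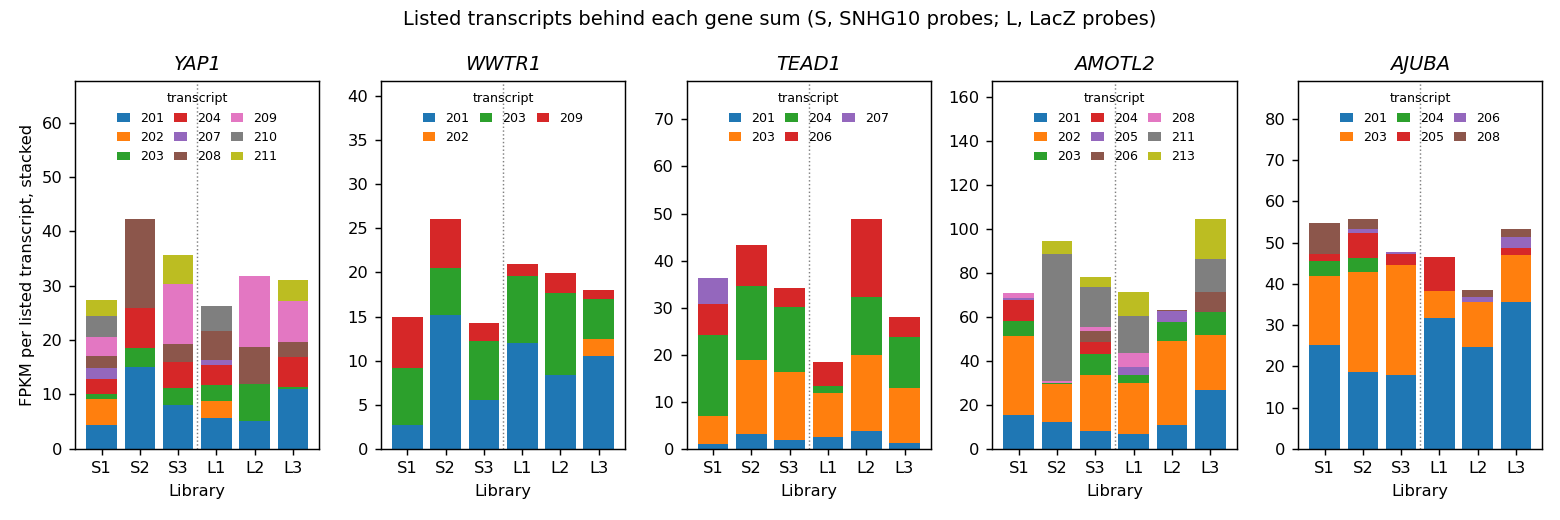
FPKM of each listed transcript, stacked to the gene sum, for the 5 members with more than 1 listed transcript, in SNHG10 libraries (S1 to S3) and LacZ libraries (L1 to L3). In AJUBA, transcript 201 is 33.6% to 46.2% of the bar with SNHG10 probes and 64.3% to 68.3% with LacZ probes, and in AMOTL2 transcript 211 ranges from 0 to 57.6 FPKM.

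The other genes of the pathway were listed from Hippo kinases to further targets, and none passed. Of 65 symbols in 5 lists, where the CCN list holds older and newer symbols of the same genes, 56 were listed and 54 tested, with 0 called higher and 0 lower. At an unadjusted p under 0.05 there were 3, and in 5 of the 54 the probe sets did not overlap, against 5.42% and 11.4% of all genes. The median log2 difference over the 54 was -0.07, and -0.05 over all genes tested. Signs leaned negative over all genes too, with 4458 positive and 5846 negative, or 5117 positive and 5165 negative under median-ratio scaling. The sign counts of the lists stand beside that split and are a description.

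Among 17 Hippo kinases and upstream regulators, 16 were tested, and 5 lay above 0 and 11 below it in log2 difference (6 positive and 10 negative under median-ratio scaling). The kinase TAOK3, which can activate the Hippo cascade, had 11.6, 7.72 and 10.6 FPKM with SNHG10 probes, against 14.3, 17.4 and 14.7 FPKM with LacZ probes. Its libraries did not overlap, but the log2 difference of -0.60 ± 0.24 did not pass (limma adjusted p = 0.885). MAP4K4, another upstream kinase, had 11.1, 11.3 and 21.3 FPKM with SNHG10 probes, against 18.8, 28.4 and 20.8 FPKM with LacZ probes. The scaffold RASSF1 had 3.18, 3.36 and 4.15 FPKM with SNHG10 probes, against 4.12, 8.37 and 6.84 FPKM with LacZ probes. Both overlapped. The most abundant of the list were the FERM-domain proteins FRMD6, with 86.4 ± 8.59 FPKM with SNHG10 probes and 86.9 ± 3.06 FPKM with LacZ probes, and NF2, with 72.1 ± 12.6 FPKM with SNHG10 probes and 71.1 ± 5.08 FPKM with LacZ probes (SD, n = 3 each).

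Of the TEAD paralogs and nuclear partners, 6 of 8 genes were tested, with 4 positive and 2 negative. TEAD4 was the most abundant of them, with 40.1, 54.5 and 48.3 FPKM with SNHG10 probes, against 34.3, 45.0 and 41.9 FPKM with LacZ probes, a mean above that of TEAD1. Its log2 difference was 0.23 for the sum and 1.39 for the highest transcript row. TEAD2 had 6.48, 8.52 and 12.2 FPKM with SNHG10 probes, against 8.48, 15.8 and 10.9 FPKM with LacZ probes. The TEAD cofactor VGLL3 and VGLL4, which competes with YAP1 for TEAD binding, had means of 12.01 and 24.72 FPKM with SNHG10 probes, and of 10.5 and 26.4 FPKM with LacZ probes. All 4 overlapped between probe sets, with a limma adjusted p of at least 0.928 in the list.

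Of the partners at junctions, LIM proteins and 14-3-3 proteins, 13 of 14 were tested. Log2 differences were positive in 5 and negative in 8, or positive in 7 and negative in 6 under median-ratio scaling. Highest in the list were messenger RNAs of the 14-3-3 proteins YWHAZ, YWHAE and YWHAQ. Such proteins hold phosphorylated YAP1 in the cytoplasm. The other 14-3-3 messenger RNAs in the list lay lower, between 28.1 and 65.6 FPKM over the 6 libraries. YWHAQ had 165, 160 and 160 FPKM with SNHG10 probes, against 148, 154 and 147 FPKM with LacZ probes, without overlap and with a log2 difference of only 0.11 ± 0.10. YWHAZ had 215, 203 and 256 FPKM with SNHG10 probes, against 231, 185 and 188 FPKM with LacZ probes, and YWHAE averaged 158.1 ± 27.8 FPKM with SNHG10 probes and 158.0 ± 10.7 FPKM with LacZ probes (SD, n = 3 each). No gene of the list passed (smallest limma adjusted p = 0.928).

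Further YAP targets, 18 genes of a published signature that also holds CYR61, CTGF, AMOTL2 and LATS2, were all tested. Log2 differences were positive in 5 and negative in 13, or positive in 7 and negative in 11 under median-ratio scaling. RBMS3, an RNA-binding protein, had the smallest p of all pathway genes: 1.07, 1.85 and 1.64 FPKM with SNHG10 probes, against 5.03, 4.53 and 4.24 FPKM with LacZ probes. The libraries were clearly apart at a low level, and the log2 difference of -1.16 ± 0.32 did not pass (limma adjusted p = 0.864). Its size depended on the setting: -2.27 with the highest transcript row in place of the sum, -1.57 with a pseudocount of 0.1 and -0.56 with a pseudocount of 5. With the filter of 5 FPKM it was not tested, and over the other alternatives its limma adjusted p lay between 0.122 and 0.926. IGFBP3, a secreted carrier of insulin-like growth factors, had 291, 236 and 239 FPKM with SNHG10 probes, against 228, 177 and 210 FPKM with LacZ probes, also without overlap (0.32 ± 0.13, limma adjusted p = 0.885). The kinase NUAK2 had 7.69, 8.82 and 6.42 FPKM with SNHG10 probes, against 10.2, 10.7 and 7.42 FPKM with LacZ probes, and overlapped. The most abundant were MYOF, a membrane repair protein, at 290.0 ± 9.74 FPKM with SNHG10 probes and 304.6 ± 4.52 FPKM with LacZ probes, and the receptor tyrosine kinase AXL, at 271.6 ± 12.5 FPKM with SNHG10 probes and 258.2 ± 26.8 FPKM with LacZ probes (SD, n = 3 each). MYOF did not overlap either, at a log2 difference of -0.07. CYR61, MYOF, AXL and IGFBP3 stood at 177 to 372 FPKM in every library. Of the other CCN family members, NOV was the only 1 of 8 symbols listed, at 0.904 to 2.63 FPKM over the 6 libraries.

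**Figure D5:**
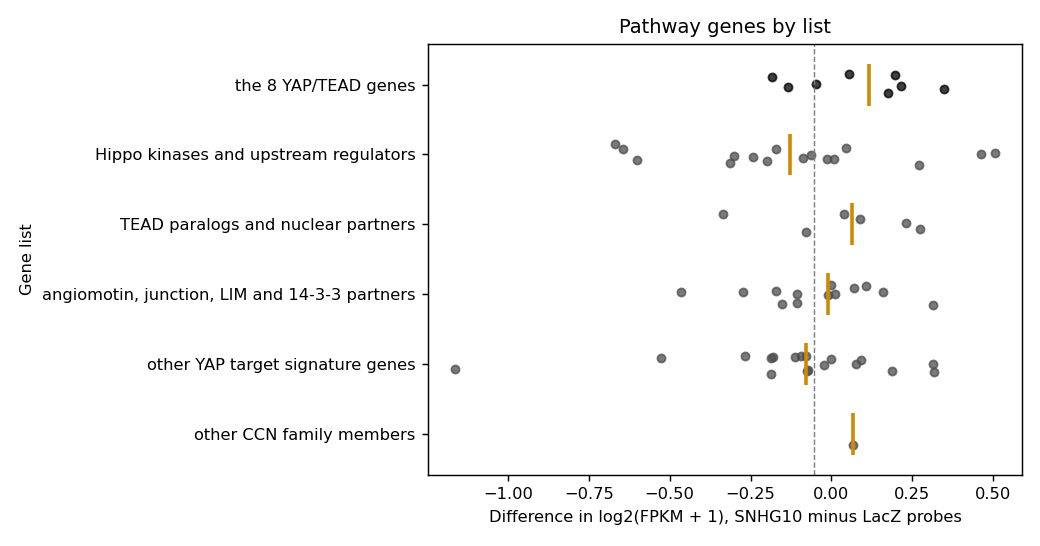
Difference in log2(FPKM + 1), SNHG10 minus LacZ probes, for the 8 members and for the tested genes of each pathway list. Points are genes, upright bars are list medians, and the dashed line is the median of all 10304 genes tested (-0.05). RBMS3 at -1.16 lies farthest out, and the list medians lie between -0.13 and 0.12.

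The gene whose profile lay nearest to each member was found by the root mean square difference of log2(FPKM + 1) over the 6 libraries, among 10304 genes. ARF6, a small GTPase, lay nearest to CTGF, at 0.0349, with 60.0, 51.4 and 57.6 FPKM with SNHG10 probes, against 50.5, 50.3 and 52.8 FPKM with LacZ probes. Next came TTYH3 with YAP1 (0.0815), SH3GL1 with LATS2 (0.0962), GPRC5A with CYR61 (0.105), UQCRC1 with AJUBA (0.111), OGFR with WWTR1 (0.131), ATP5H with AMOTL2 (0.174) and NEDD4L with TEAD1 (0.236). This distance takes in the mean level as well as the changes over the libraries. None of these 8 was itself a member or a gene of the pathway lists. The 8 members and the 54 tested pathway genes are a small part of the 10304 genes, so that count is only a description.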

How the data were processed

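RNA was measured in 6 libraries, 3 per probe set, grouped by title. Deposited values are FPKM per protein-coding transcript, per the file headers; alignment used Bowtie2 2.1.0 and hg19, per the submitters' processing notes, and the program that estimated FPKM is not given in the sources used here. Values went down to 5e-06 FPKM, so whole reads could not be recovered and depth is unknown. FPKM were summed per gene symbol. Genes, and separately transcript rows, entered the test if 3 or more libraries reached 1 FPKM. The model was lmFit and eBayes with trend (limma 3.58.1, R 4.3.3) on log2(FPKM + 1), which understates changes of low genes, and p-values were adjusted by Benjamini-Hochberg over all rows of a kind. Exact permutation tests on a member's FPKM or ratio were two-sided and ran over 20 assignments (scipy 1.17.1, pandas 2.3.3). The fit was tested on simulated data: rows were shuffled over the libraries, and some were multiplied by set folds in the SNHG10 libraries. Shuffling puts any real difference into the spread, so the outcome does not measure power in the data as they are. The fit found most of the largest folds in gene sums and missed most of the smallest. For transcript rows false calls ran well above the nominal rate, so transcript calls are not firm. The members and lists were chosen with earlier results of these data known. Named genes were the members, the 3 smallest p and 2 highest means of each list, and the nearest profile of each member (1 gene under this rule is not reported here); transcripts, and the 3 markers with separate libraries, were named after their values were seen. The 16 alternatives changed the block (replicate number), the libraries (each omitted), the filter (none, or 5 FPKM), the pseudocount (0.1, 5), the scaling (median-ratio, quantile), the variance model (no trend, robust) or the gene summary (highest transcript row). Promoter sequences are from RefSeq (GRCh38.p14).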

Additional observations from a re-analysis of the deposited data

How the results depend on the processing

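Members and pathway genes called numbered 0 under each of the 16 alternatives, as did member transcripts under all of them but the highest-row setting, which was not run on transcripts. Over all genes, leave-one-out runs called 0 to 1 higher (1 without LacZ replicate 2) and 0 to 1 lower (1 without SNHG10 replicate 1), and taking the highest transcript row in place of the sum called 2 higher and 2 lower. With that row, AJUBA turned to -0.56, AMOTL2 to -0.16, TEAD1 to -0.10, MYOF to 0.44, TEAD2 to 0.95, YWHAZ to -0.16 and FRMD6 to 0.14 (log2 differences, SNHG10 minus LacZ probes). For the members, these are the values of the highest rows themselves, AJUBA-201, AMOTL2-202 and TEAD1-203, while AJUBA-203, AMOTL2-211 and TEAD1-204 had positive differences. For the other genes the cause was not tested. Without a change of sign, the same setting moved TAOK3 to -0.26, MAP4K4 to -1.15, RASSF1 to -0.22, VGLL3 to 0.08, VGLL4 to -0.36, AXL to 0.22 and YWHAE to -0.23, none of them called. Signs near 0 turned too: CYR61 was 0.0128, FRMD6 0.0465 and YWHAE 0.0487 with median-ratio scaling, and FRMD6 was 0.0294 with quantile normalization. Over leave-one-out runs AMOTL2 ranged from -0.096 to 0.265, WWTR1 from -0.399 to 0.0125, CYR61 from -0.114 to 0.022, NF2 from -0.0883 to 0.156, NOV from -0.170 to 0.280, FRMD6 from -0.0879 to 0.0517, YWHAE from -0.150 to 0.0794 and VGLL4 from -0.216 to 0.139. The replicate block left each log2 difference as it was and called 0 genes and 0 member transcripts. The replicate numbers were not taken as a pairing, since their libraries' deviations from the group means correlated by only 0.0151, 0.0121 and 0.0161. Unknown depth limits what transcript values near 0 can show.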
